A study of Mus musculus with 20 samples.

Results

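Suz12 binding was described at the Zbtb genes of wild-type E14 mouse embryonic stem cells in which transcription had been inhibited. The genes were all protein-coding genes whose symbol starts with Zbtb, 41 of the 21627 protein-coding genes of the autosomes and X. A gene was given the Suz12 regions that lay within 1 kb of either of its annotated ends, and 23 of the 41 genes had such a region. Their regions numbered 28 of the 11943 made by merging the deposited peaks of 8 Suz12 libraries. The family was picked with its peak pattern already known, so the counts of peaks below are a description and carry no test.

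Cells were grown in serum with LIF, the cytokine that keeps them undifferentiated, on gelatin. The treated groups were DRB 12 h (100 µM) and triptolide 9 h (10 µM), and the untreated groups were DRB 0 h and triptolide 0 h, with 2 libraries in each of the 4 groups and 12 of the 20 samples of the series not analysed here. All groups were wild type and shared the culture conditions. The design text calls the replicates biological, but no label states that the cultures were separate, so p-values measure the spread between these libraries. The names of the count columns put treated and untreated libraries on different sequencing lanes, so lane and treatment cannot be told apart. DRB inhibits CDK9, the kinase that lets paused RNA polymerase II elongate, and triptolide acts on the initiation factor TFIIH.

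Zbtb proteins carry a BTB domain, through which they pair and recruit corepressors such as NCoR and BCOR, and C2H2 zinc fingers, through which they bind DNA. Most act as transcriptional repressors, and several decide the fate of blood cells, germ cells or neurons. Suz12 belongs to the core of Polycomb repressive complex 2, which methylates histone H3 at lysine 27 and in embryonic stem cells sits mainly at CpG-rich promoters of silent developmental genes. Zbtb8os, whose symbol fits the rule, encodes archease, an RNA ligation cofactor, and is not a zinc finger protein.

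The sequence upstream of the start is shown for 5 genes that stand for the peak patterns described below. The windows are the 250 bases before the start in RefSeq's GRCm38.p6 table, written 5′ to 3′ on the strand of the gene, with each CpG in capitals. Zbtb12 (chr17:34894309-34894558, plus strand), Zbtb18 (chr1:177442101-177442350, plus strand) and Zbtb45 (chr7:13009853-13010102, minus strand) had peaks in treated lists only. Zbtb42 (chr12:112678590-112678839, plus strand) had a peak in every list, and Zbtb33 (chrX:38189543-38189792, plus strand) had none.
Zbtb12: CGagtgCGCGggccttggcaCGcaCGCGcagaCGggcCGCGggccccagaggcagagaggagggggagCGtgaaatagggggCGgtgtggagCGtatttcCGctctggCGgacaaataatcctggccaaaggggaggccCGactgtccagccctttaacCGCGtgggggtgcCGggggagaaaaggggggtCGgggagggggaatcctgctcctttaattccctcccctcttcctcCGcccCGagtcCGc
Zbtb18: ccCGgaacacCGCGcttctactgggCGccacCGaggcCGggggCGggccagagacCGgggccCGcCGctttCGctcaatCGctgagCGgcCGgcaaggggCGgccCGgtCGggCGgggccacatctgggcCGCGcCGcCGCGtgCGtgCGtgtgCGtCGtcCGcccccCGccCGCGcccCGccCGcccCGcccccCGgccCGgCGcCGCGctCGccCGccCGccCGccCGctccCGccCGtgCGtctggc
Zbtb45: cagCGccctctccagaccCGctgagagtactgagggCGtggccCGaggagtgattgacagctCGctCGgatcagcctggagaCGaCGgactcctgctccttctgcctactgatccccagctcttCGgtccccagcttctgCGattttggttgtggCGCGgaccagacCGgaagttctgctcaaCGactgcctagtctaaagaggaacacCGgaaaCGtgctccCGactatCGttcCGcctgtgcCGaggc
Zbtb42: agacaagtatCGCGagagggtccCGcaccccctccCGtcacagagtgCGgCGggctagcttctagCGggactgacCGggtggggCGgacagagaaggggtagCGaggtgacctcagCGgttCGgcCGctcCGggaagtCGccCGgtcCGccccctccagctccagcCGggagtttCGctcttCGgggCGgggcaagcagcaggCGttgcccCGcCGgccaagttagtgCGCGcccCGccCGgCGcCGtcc
Zbtb33: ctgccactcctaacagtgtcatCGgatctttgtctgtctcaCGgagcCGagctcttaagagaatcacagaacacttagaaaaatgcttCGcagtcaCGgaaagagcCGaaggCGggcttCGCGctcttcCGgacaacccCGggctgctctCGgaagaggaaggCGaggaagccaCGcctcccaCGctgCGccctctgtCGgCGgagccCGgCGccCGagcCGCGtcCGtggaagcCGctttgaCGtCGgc
The windows held 22 CpG for Zbtb12, 47 for Zbtb18, 20 for Zbtb45, 30 for Zbtb42 and 27 for Zbtb33, so that the gene without a peak lay within the range of those with peaks. The windows of Zbtb18 and Zbtb42 lay inside the genes' Suz12 regions, that of Zbtb12 overlapped the edge of its region, and that of Zbtb45 lay outside its region.

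The libraries held between 1323926 and 7340023 reads counted over the regions, and the DRB 0 h library of index ATCACG was the shallowest. Libraries of a group differed beyond sampling noise, the chi-square over its degrees of freedom being 8.65 for DRB 12 h, 2.47 for triptolide 9 h, 3.03 for DRB 0 h and 3.23 for triptolide 0 h. The lists held between 7153 and 10929 peaks in treated libraries, against 5116 to 6886 peaks in untreated libraries, so more genes of any kind could have a peak after treatment. As a check of the label, Pou5f1, Nanog and Esrrb, which are active in embryonic stem cells, had no region, and the silent genes Hoxa9, Pax6 and Cdx2 had peaks in all 8 lists. Sox2, which is active, had peaks in treated lists only, and Gata4, which is silent in these cells, had no region.

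Peaks at Zbtb genes were mostly peaks of treated cells. Of the 41 genes, 22 and 20 had a peak in the DRB 12 h lists and 13 and 18 in the triptolide 9 h lists, against 5 in each of the 4 untreated lists. The 5 genes were the same in all untreated lists (Zbtb7b, Zbtb7c, Zbtb10, Zbtb16 and Zbtb42), and all 5 also had a peak in every treated list. The matching share of all protein-coding genes was not counted per list, and treated lists held more peaks of any kind. Each of the 4 treated lists, but no untreated list, held a peak at 8 genes (19.5%), namely Zbtb1, Zbtb4, Zbtb7a, Zbtb12, Zbtb18, Zbtb22, Zbtb25 and Zbtb45. The share of all protein-coding genes with that pattern was 4.01% (868 genes). Peaks in all 8 lists were found at 12.2% of the Zbtb genes, against 14.6% of all protein-coding genes. The reverse pattern, with peaks in untreated lists only, was found at 0 Zbtb genes and at 1 protein-coding gene in all (0.00462%).

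**Figure D1:**
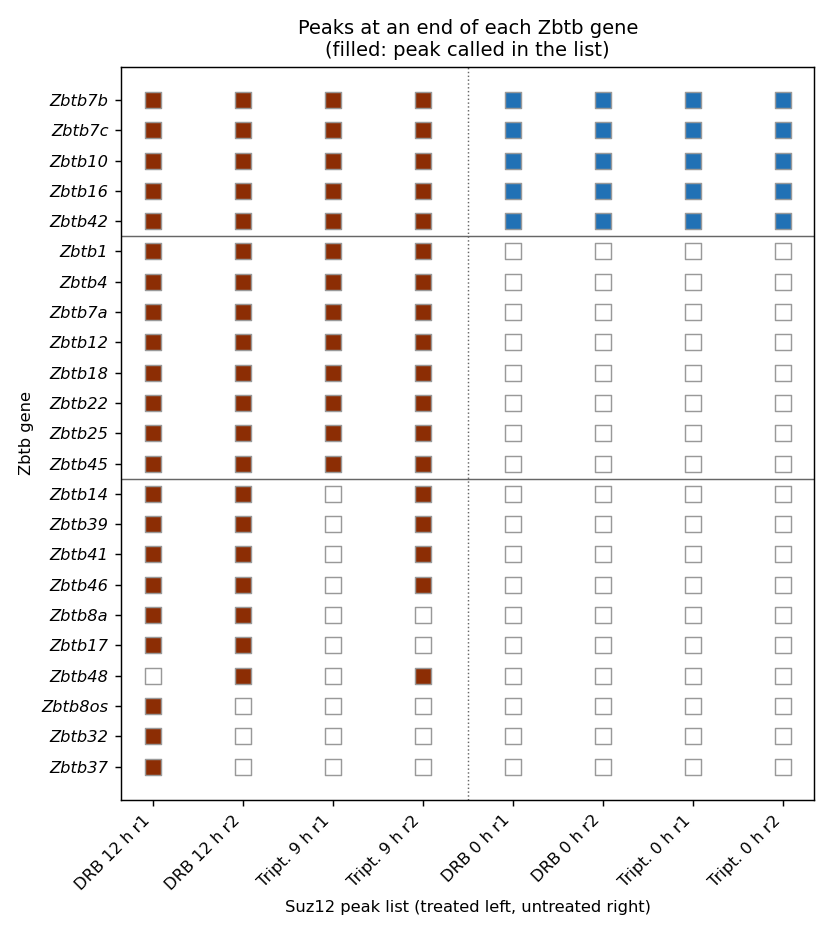
Suz12 peaks within 1 kb of an end of the 23 Zbtb genes with a region, by peak list, with treated lists on the left and untreated lists on the right. A filled square is a called peak; the 5 genes at the top had a peak in every list, the next 8 had peaks in the 4 treated lists only, and none of the 10 genes at the bottom had a peak in an untreated list.

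A further 10 genes (24.4%) had peaks in some lists, in each case in treated lists alone. Peaks in some lists were found at 18.2% of all protein-coding genes, but that share also counts genes with peaks in untreated lists. Zbtb14, Zbtb39, Zbtb41 and Zbtb46 had peaks in both DRB 12 h lists and in triptolide 9 h replicate 2 only. Zbtb8a and Zbtb17 had them in both DRB 12 h lists, Zbtb48 in replicate 2 of either drug, and Zbtb8os, Zbtb32 and Zbtb37 in DRB 12 h replicate 1 alone. Triptolide 9 h replicate 1 had the shortest treated list, and without it the genes with a peak in every remaining treated list and in no untreated list numbered 12 instead of 8. Any region at all was found at 56.1% of the Zbtb genes, against 36.8% of all protein-coding genes.

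No region was found at 18 genes (43.9%): Zbtb2, Zbtb3, Zbtb5, Zbtb6, Zbtb8b, Zbtb9, Zbtb11, Zbtb20, Zbtb21, Zbtb24, Zbtb26, Zbtb33, Zbtb34, Zbtb38, Zbtb40, Zbtb43, Zbtb44 and Zbtb49. Among them were Zbtb33 (Kaiso) and Zbtb38, which bind methylated CpG, while Zbtb4, the third methyl-CpG binder of the family, had peaks in treated lists only. Zbtb24, mutated in a human immunodeficiency with loss of DNA methylation at centromeric repeats, also had no region. The 1 kb limit set the edge of the group. Just inside it, the region of Zbtb32 ended 804 bp from the nearer gene end. Just outside it, a region within Zbtb2 began 1411 bp from the gene end. That region (chr10:4368485-4369571) had a peak in each treated list but in no untreated list, with 26 and 33.3 CPM at DRB 12 h and 33 and 33.9 CPM at triptolide 9 h, against 13.1 and 9.41 CPM at DRB 0 h and 12 and 13 CPM at triptolide 0 h. CPM here are reads per 1e6 reads counted over all regions, after scaling. Zbtb20, a regulator of hippocampal neurons and liver genes that spans 758704 bp, had a region with peaks in all 8 lists inside the gene, 23344 bp from its nearer end. That region held 51.2 and 83.3 CPM at DRB 12 h and 73.4 and 70.8 CPM at triptolide 9 h. It held 79.7 and 122 CPM at DRB 0 h and 141 and 125 CPM at triptolide 0 h. The groups overlapped, and the log2 change of treated over untreated was -0.74 ± 0.16 (SE).

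Reads over the regions were compared as log2 changes of treated over untreated libraries, fitted in edgeR on all 11943 regions with p-values adjusted over all of them. Over both drugs, 19 of the 28 Zbtb regions rose and 2 fell at an adjusted p under 0.05, and 7 were not called. Of all regions, 28% rose and 28.9% fell. The median log2 change was 0.68 for the Zbtb regions (range -0.51 to 1.83) and 0.05 for all regions. In 16 of the 28 regions every treated library lay above every untreated library, in 2 every treated library lay below, and in 10 they overlapped; of all regions, 24.4% lay above and 25.2% below. These counts are not independent of the peak lists, since a peak called in treated lists alone favours higher reads in the same libraries. Scaling set the zero line: with factors from regions peaked in all 8 lists, the median moved to 1.04 for the Zbtb regions and 0.41 for all regions, and 25 Zbtb regions rose and 0 fell, while 49.2% of all regions rose and 10.7% fell. With library sums as the scale, 20 rose and 1 fell, while 39% of all regions rose and 18.7% fell.

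Either drug alone gave more rises than falls at these regions. Under DRB 15 Zbtb regions rose and 1 fell (18.1% and 19.2% of all regions), with a median log2 change of 0.72. Under triptolide 12 rose and 1 fell (19.3% and 21.9% of all regions), with a median of 0.63. The change under DRB minus the change under triptolide was called at 0 of the 28 regions by edgeR (0.0167% of all regions), at 0 at an unadjusted p under 0.05, and at 0 by DESeq2. The differences were not all small: at Zbtb32 the log2 change was 1.38 under DRB and 0.28 under triptolide, a difference of 1.10 ± 0.63 (SE), and at Zbtb37 the difference was -0.89 ± 0.79.

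**Figure D2:**
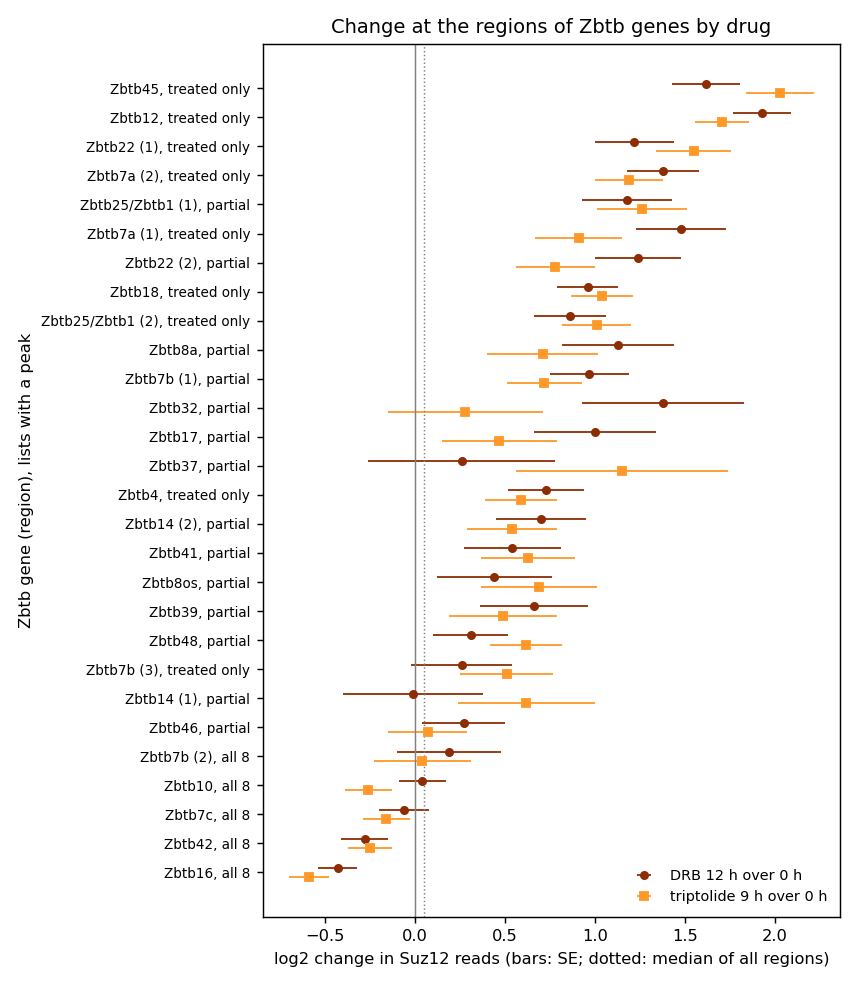
Log2 change in Suz12 reads at the 28 regions of Zbtb genes, by drug, ordered by the change over both drugs; points are edgeR estimates, bars are SE, and the dotted line is the median of all regions (0.05). Zbtb45 and Zbtb12 lie at the top and Zbtb16 at the bottom under both drugs; under the scaling on regions peaked in all 8 lists all points move right, and the estimates for Zbtb42, Zbtb7c and Zbtb10 over both drugs turn positive.

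Among the genes with peaks in treated lists only, Zbtb12 and Zbtb45 had the most Suz12 per length after treatment. Per kb of counted peak, Zbtb12 had a level of 50.6 ± 2 CPM in treated libraries and 14.3 ± 1.68 CPM in untreated libraries, and Zbtb45 had 46.8 ± 7.56 CPM in treated libraries and 13 ± 1.88 CPM in untreated libraries (SD, n = 4 each). The other regions with this list pattern had levels between 19.4 and 35.4 CPM per kb in treated libraries. The Zbtb45 region (chr7:13005741-13008609) lay in the gene, from 75 bp inside its 3′ end to 1243 bp downstream of its start. It had 127 and 112 CPM at DRB 12 h and 163 and 135 CPM at triptolide 9 h, against 37.0 and 39.3 CPM at DRB 0 h and 42.7 and 30 CPM at triptolide 0 h. The lowest treated library was therefore well above the highest untreated library, and the log2 change over both drugs was 1.83 ± 0.13 (SE), or 3.55-fold. The Zbtb12 region (chr17:34894502-34896831) covered its start and nearly all of the 2309 bp gene. It had 121 and 111 CPM at DRB 12 h and 117 and 121 CPM at triptolide 9 h, against 29.6 and 30.6 CPM at DRB 0 h and 38.1 and 34.3 CPM at triptolide 0 h. Zbtb12 thus reached nearly the same level under both drugs, with a log2 change of 1.82 ± 0.11, or 3.54-fold.

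Zbtb22, in the major histocompatibility complex beside Tapbp, had a region inside the gene (chr17:33916759-33919076). It held 53.6 and 61.1 CPM at DRB 12 h and 77.8 and 64.3 CPM at triptolide 9 h, against 31.2 and 21.4 CPM at DRB 0 h and 22.1 and 26.7 CPM at triptolide 0 h, without overlap (log2 change 1.38 ± 0.15). A second region (chr17:33919248-33920646), over the end of Zbtb22 and also near Tapbp, had a log2 change of 1.01 ± 0.16. Both regions were within 1 kb of an end of Tapbp, which encodes the peptide-loading protein tapasin, and 10 of the 28 regions were shared in this way with a gene outside the family.

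Zbtb7a (LRF), a repressor of fetal globin genes and a regulator of blood lineages, had a region over its start (chr10:81134913-81137261) and another beyond its 3′ end near Pias4 (chr10:81153138-81154897). The region over the start held 87.2 and 63.8 CPM at DRB 12 h and 56.5 and 46.2 CPM at triptolide 9 h, against 34.5 and 22.4 CPM at DRB 0 h and 31.0 and 23.1 CPM at triptolide 0 h. The groups did not overlap at either region, and the log2 changes were 1.20 ± 0.17 and 1.28 ± 0.14. Over the narrowest peak of the region at the start it was 1.87. Zbtb18 (RP58), a repressor needed for the development of cortical neurons, had a region over its start (chr1:177441393-177444019). It held 82.0 and 70.6 CPM at DRB 12 h and 65.2 and 65.8 CPM at triptolide 9 h, against 36.2 and 40.7 CPM at DRB 0 h and 30.4 and 33.2 CPM at triptolide 0 h. The log2 change was 1.00 ± 0.12 over the widest peak of the region and 0.35, with an adjusted p of 0.153 in edgeR, over its narrowest peak, which covers only the flank.

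Zbtb1, needed for lymphocyte development, and Zbtb25 are neighbours that are read in opposite directions, and their ends shared both of their regions. The region over the start of Zbtb1 (chr12:76369851-76371700) held 45.6 and 41.0 CPM at DRB 12 h and 43.4 and 45.8 CPM at triptolide 9 h, against 20.5 and 25.4 CPM at DRB 0 h and 23.5 and 20.6 CPM at triptolide 0 h. Treated and untreated libraries did not overlap there (log2 change 0.93 ± 0.14), nor at the region over the start of Zbtb25 (chr12:76368762-76369832), which had peaks in 3 of the 4 treated lists (1.22 ± 0.18). The 2 genes are therefore 1 observation. At the start of Zbtb4 (chr11:69765244-69767615), the methyl-CpG binder, the 4 treated libraries held 41.0 to 46.4 CPM, against 19.7 to 30.6 CPM in the 4 untreated libraries (log2 change 0.66 ± 0.15).

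**Figure D3:**
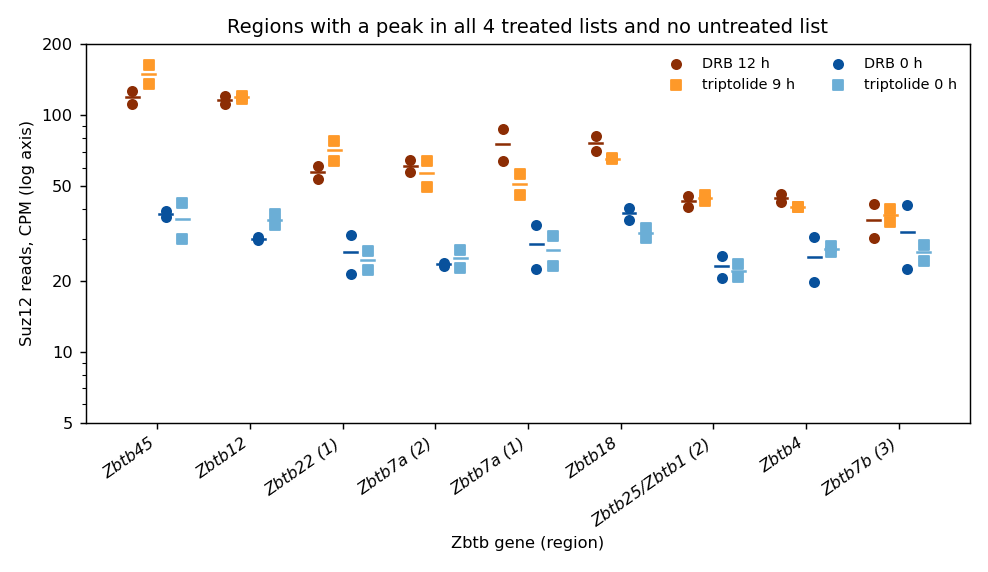
Suz12 reads in CPM (log axis) per library at the 9 Zbtb regions peaked in every treated list but in no untreated list; each point is a library and each short line the mean of a group. Treated libraries lie above all untreated libraries at 8 of the regions, and they overlap at the region upstream of Zbtb7b.

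By the edgeR test 8 of these 9 regions rose, beside 87.3% of all regions with the same list pattern, and nothing is read from that count, since the pattern chose it. To read the change in libraries that had no part in placing the regions, regions were merged from the 4 DRB lists alone and tested in the triptolide libraries, and from the 4 triptolide lists alone and tested in the DRB libraries. The family had been picked with the peak patterns of both drugs known, and the genes named below by their change over both drugs, so this reading is a description and not independent support. Of 27 Zbtb regions from DRB lists, 12 rose and 1 fell in the triptolide libraries by edgeR, beside 19.3% and 21.8% of all regions from those lists, with a median log2 change of 0.69 against 0.02. Of the 17 with a peak in both DRB 12 h lists and in no DRB 0 h list, 10 rose, beside 46.5% of all such regions. Of 26 Zbtb regions from triptolide lists, 13 rose and 1 fell in the DRB libraries, beside 23% and 20.3%, with a median of 0.71 against 0.02. All 7 with a peak in both triptolide 9 h lists and in no triptolide 0 h list rose, beside 68% of all such regions. At regions called in untreated and treated lists of the drug that placed them, 0 of 5 rose and 1 fell in each reading, beside 8.59% and 45.2% of all such regions from DRB lists, and 9.4% and 36% from triptolide lists.

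Gene by gene, this reading used the same libraries over overlapping bases, so values near those above are no further support. The Zbtb45 region from DRB lists had 164 and 136 CPM at triptolide 9 h, against 40.3 and 29.3 CPM at triptolide 0 h (log2 change 2.09 ± 0.18). That from triptolide lists had 137 and 119 CPM at DRB 12 h, against 37.7 and 40.5 CPM at DRB 0 h (1.69 ± 0.20). For Zbtb12 the edgeR log2 change was 1.72 ± 0.15 in the triptolide libraries and 1.99 ± 0.16 in the DRB libraries. Zbtb22 had a log2 change of 1.56 ± 0.20 in the triptolide libraries and of 1.28 ± 0.22 in the DRB libraries. Zbtb18 had a log2 change of 1.05 ± 0.17 in the triptolide libraries and of 1.24 ± 0.18 in the DRB libraries, where a flanking region from 1 triptolide list held 16 and 15 CPM at DRB 12 h, against 15.1 and 15 CPM at DRB 0 h. The start of Zbtb7a had a log2 change of 0.92 ± 0.24 in the triptolide libraries and of 1.72 ± 0.27 in the DRB libraries. For Zbtb4 the region from DRB lists had a log2 change of 0.60 ± 0.20 in the triptolide libraries, and the regions from triptolide lists had 1.04 ± 0.26 and 0.91 ± 0.25 in the DRB libraries.

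The 5 regions with a peak in every list had the highest Suz12 levels of the family per length, averaged over all libraries, and none of them rose under TMM scaling. Their levels per kb of counted peak were 46.4 to 77.7 CPM in treated libraries and 44.2 to 93.3 CPM in untreated libraries. The treated levels of Zbtb12 and Zbtb45 thus reached that of the Zbtb7b start, at 46.4 ± 4.5 CPM per kb in treated libraries, but not that of Zbtb16, at 64.8 ± 3.92 CPM per kb in treated libraries (SD, n = 4). Zbtb16 (PLZF), a factor of spermatogonial stem cells, limb patterning and natural killer T cells, had the broadest of these regions (chr9:48832293-48838430). It held 423 and 367 CPM at DRB 12 h and 385 and 389 CPM at triptolide 9 h, against 545 and 518 CPM at DRB 0 h and 557 and 605 CPM at triptolide 0 h. All treated libraries were below all untreated libraries, and Zbtb16 fell by 0.51 ± 0.08 on the log2 scale over both drugs (edgeR adjusted p = 0.000205). The fall was called under DRB (-0.43 ± 0.11, edgeR adjusted p = 0.0115) and under triptolide (-0.59 ± 0.11, adjusted p = 0.00177), and also in the libraries of the drug whose lists had not placed the region. It was not called under the scaling on regions peaked in all 8 lists, where it was -0.14 with an edgeR adjusted p of 0.0963, nor under that kind of scaling in the libraries of the other drug. Without DRB 0 h index ATCACG, 0 Zbtb regions fell under DRB.

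Zbtb42, expressed in skeletal muscle, had a region over its start (chr12:112677588-112681737) with 330 and 276 CPM at DRB 12 h and 291 and 310 CPM at triptolide 9 h, against 389 and 348 CPM at DRB 0 h and 344 and 370 CPM at triptolide 0 h. The groups did not overlap, and Zbtb42 fell by 0.26 ± 0.09 on the log2 scale over both drugs (edgeR adjusted p = 0.0227), with 0.10 under the scaling on regions peaked in all 8 lists and -0.06 under the sum of counts. Neither drug alone passed (edgeR adjusted p = 0.0998 under DRB and 0.129 under triptolide). The call also ended without DRB 12 h index TGACCA, without either triptolide 9 h library, without DRB 0 h index ATCACG and without triptolide 0 h replicate 2, with log2 changes between -0.28 and -0.20 and edgeR adjusted p between 0.061 and 0.105.

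Zbtb7c, a close relative of Zbtb7a and Zbtb7b, held 333 and 270 CPM at DRB 12 h and 247 and 244 CPM at triptolide 9 h, against 337 and 292 CPM at DRB 0 h and 261 and 289 CPM at triptolide 0 h. Zbtb10, which in human cells represses Sp transcription factor genes, held 268 and 251 CPM at DRB 12 h and 210 and 228 CPM at triptolide 9 h, against 228 and 272 CPM at DRB 0 h and 241 and 282 CPM at triptolide 0 h. The groups overlapped at both genes. The log2 changes over both drugs were -0.11 ± 0.10 for Zbtb7c and -0.11 ± 0.09 for Zbtb10, which did not pass in edgeR (adjusted p = 0.332 and 0.336). The sign turned under other scalings, to 0.09 for both genes under the sum of counts and to 0.26 for both under the scaling on regions peaked in all 8 lists, where both were called (edgeR adjusted p = 0.0209 for Zbtb7c and 0.0281 for Zbtb10).

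Zbtb7b (ThPOK), the factor that directs T cells to the CD4 lineage, had 3 regions that differed among themselves. The region over its start (chr3:89391241-89393483), with a peak in every list, held 110 and 87.6 CPM at DRB 12 h and 95.0 and 95.5 CPM at triptolide 9 h, against 130 and 54.8 CPM at DRB 0 h and 88.9 and 96.0 CPM at triptolide 0 h (log2 change 0.12 ± 0.20, edgeR adjusted p = 0.631). The region toward its 3′ end, also near Dcst2 (chr3:89378226-89381721), held 165 and 131 CPM at DRB 12 h and 128 and 140 CPM at triptolide 9 h, against 103 and 56.7 CPM at DRB 0 h and 81.7 and 80.9 CPM at triptolide 0 h, without overlap (0.84 ± 0.16). The region upstream of the start (chr3:89393572-89396744), with peaks in treated lists only, held 30.4 to 42.0 CPM in treated libraries, against 22.4 to 41.9 CPM in untreated libraries, and the groups overlapped (0.39 ± 0.19). The highest untreated value at all 3 regions came from DRB 0 h index ATCACG, the shallowest library, whose part in these values was not tested.

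**Figure D4:**
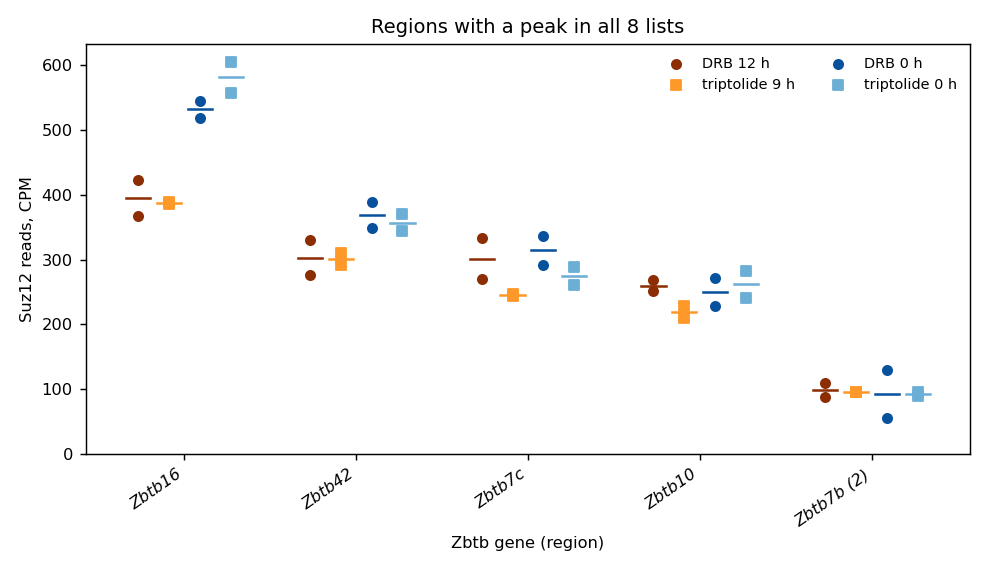
Suz12 reads in CPM per library at the 5 Zbtb regions with a peak in all 8 lists; each point is a library and each short line the mean of a group. Treated libraries lie below all untreated libraries at Zbtb16 and Zbtb42 and overlap them at Zbtb7c, Zbtb10 and Zbtb7b; under the scaling on regions peaked in all 8 lists the change of Zbtb16 is -0.14 and that of Zbtb42 is 0.10.

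Of the 5 regions with a peak in all lists, 0 rose and 2 fell over both drugs, beside 10.3% and 59.1% of all such regions, so a fall was not more frequent than in all such regions. Their median log2 change was -0.11, against -0.38 for all regions with peaks in every list. They were broad, with a median width of 3949 bp, against 2370 bp for all such regions, and their median level over all libraries was 78.4 CPM per kb, against 53.5 CPM per kb. The regions with peaks in treated lists only had a median width of 2349 bp, against 1523 bp for all such regions. Their median level per length was not higher, with 27.7 CPM per kb in treated libraries, against 28.5 CPM per kb in treated libraries for all such regions.

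At the genes with peaks in some of the treated lists, levels were low. The 14 regions with peaks in some lists had a median of 21.4 CPM per kb in treated libraries and 13.3 CPM per kb in untreated libraries. Of these regions, 13 had a peak in 1 to 3 treated lists and in no untreated list, so that their lists favoured a rise. In edgeR over both drugs 10 of the 13 rose and 0 fell, beside 32.9% and 1.46% of all regions with such lists. The 14 include 1 region each of Zbtb7b, Zbtb22 and the Zbtb25 and Zbtb1 pair. Zbtb8a had a region over its start (chr4:129376943-129378164) with 22.0 and 31.0 CPM at DRB 12 h and 17.8 and 18.5 CPM at triptolide 9 h, against 13.1 and 12.0 CPM at DRB 0 h and 7.74 and 14.8 CPM at triptolide 0 h (log2 change 0.92 ± 0.22). Its groups did not overlap, although only DRB lists had a peak. Log2 changes over both drugs were 0.74 ± 0.23 at Zbtb17 (Miz-1, a partner of Myc), 0.83 ± 0.31 at Zbtb32 (a repressor in lymphocytes), 0.62 ± 0.18 at the start of Zbtb14 and 0.46 ± 0.15 at Zbtb48, whose human counterpart binds telomeric repeats. By single drug in edgeR, Zbtb8a, Zbtb17, Zbtb32 and the start of Zbtb14 passed under DRB but not under triptolide. Zbtb48 passed under triptolide but not under DRB. Zbtb41, Zbtb39 and Zbtb8os had 0.59 ± 0.19, 0.57 ± 0.21 and 0.57 ± 0.23, but passed under neither drug alone in edgeR. Treated and untreated libraries overlapped at Zbtb41, at Zbtb39 and at the start of Zbtb14. The regions of Zbtb32, Zbtb8os, Zbtb17 and Zbtb48 were shared with Kmt2b, Rbbp4, Gm42337 and Tas1r1, in that order. The region at the start of Zbtb14 was shared with Gm49894. The reads of these regions may belong to the other genes.

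The remaining regions of this kind did not pass. Zbtb46, a marker of classical dendritic cells, had a region over its annotated 5′ end, shared with Abhd16b (chr2:181493041-181494608). It held 29.6 and 38.9 CPM at DRB 12 h and 36.8 and 38.5 CPM at triptolide 9 h, against 20.5 and 33.9 CPM at DRB 0 h and 36.7 and 35 CPM at triptolide 0 h. The groups overlapped (log2 change 0.17 ± 0.16, or 0.53 under the scaling on regions peaked in all 8 lists, where it was called with an edgeR adjusted p of 0.0169). Zbtb37 had 0.70 ± 0.39 and the region upstream of Zbtb14 had 0.31 ± 0.28, and both were among the shallowest, with 6 and 5 reads in DRB 0 h index ATCACG. Some regions called as rises were similarly shallow in that library, with 5 reads at Zbtb17, 7 at Zbtb32 and 9 at Zbtb8os.

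Sequence was not used to choose the genes or their regions. The regions were taken by position, within 1 kb of a gene end, which favours regions over a start. The share of all regions that cover a start was not counted. Of the 28 regions, 13 covered a start listed for a Zbtb gene in the RefSeq promoter table, 11 lay away from it, and 4 belonged to genes with no listed start (Zbtb7c, Zbtb10, Zbtb16 and Zbtb48). The promoter table held 36 of the 41 genes, and not Zbtb40 or the 4 genes just named. The upstream windows of the 36 genes had a median of 21 CpG and a ratio of observed to expected CpG of 0.796, against 10 CpG and 0.546 for the 17273 protein-coding genes in the table. The median was 24 CpG for the 8 Zbtb genes with peaks in treated lists only (18 for all genes with that pattern), and 18.5 for the 2 matched genes with peaks in all lists (16). It was 17 for the 9 genes with peaks in some lists (17) and 23 for the 17 genes with no region. All genes without a region had a median of 5. Zbtb genes without a Suz12 region therefore had about as many CpG upstream as those that had peaks in treated lists only. Counts ran from 0 at the listed start of Zbtb46, which lies 68653 bp from its region, to 47 at Zbtb18.

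**Figure D5:**
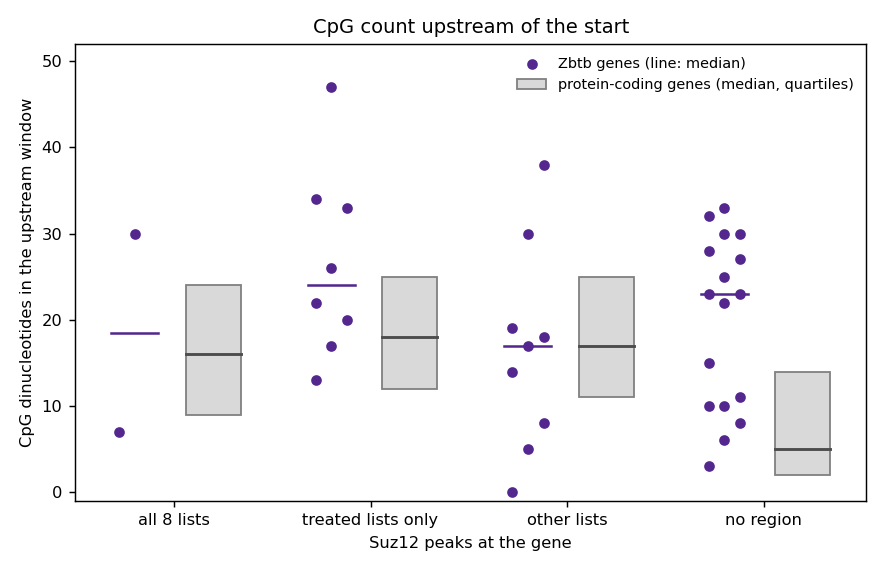
CpG dinucleotides in the upstream window by Suz12 peak pattern; points are Zbtb genes with their median as a line, and boxes give the median and quartiles of all protein-coding genes with the same pattern. The 17 Zbtb genes with no region have a median of 23, against 5 for all genes with no region.

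Short motifs were counted on both strands of the same windows. CGCG, which Kaiso binds when methylated, was in 23 of the 36 windows (63.9%), against 44.2% of all windows. TCCTGC, the core of the unmethylated Kaiso site, was in 8 (22.2%), against 21.3%. CCGGAA, an ETS-type core, was in 12 (33.3%), against 15.4%. CGCG and CCGGAA contain CG and were counted in windows that were richer in CG than the rest, and all 3 counts describe letters only. Among genes with a region, CGCG was in 68.4% of the Zbtb windows, against 67.5% of all windows. CCGGAA was in 31.6% of the Zbtb windows there, against 15.4% of all windows.

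Related genes were read from lists chosen from textbook knowledge, with results of these data already known. Of 8 BTB zinc finger genes with another symbol (Bcl6, Bcl6b, Hic1, Hic2, Mynn, Patz1, Gzf1 and Zfp131), 5 had a region, 2 in all 8 lists and 2 in treated lists only. Of all protein-coding genes, 36.8% had a region, 14.6% in all 8 lists and 4.01% in treated lists only. Of the 6 regions of these genes, 5 rose and 1 fell over both drugs in edgeR, beside 28% and 28.9% of all regions, and their median log2 change was 0.79, against 0.05 for all regions. The regions of Zfp131 and Patz1 had peaks in treated lists alone, and such lists favour a rise. Zfp131 (1.00 ± 0.15), Patz1 (0.87 ± 0.15), Bcl6, the repressor of germinal centre B cells (0.85 ± 0.12), and Bcl6b (0.54 ± 0.12) rose. Hic1, a tumour suppressor, was the region that fell (-0.28 ± 0.10, edgeR adjusted p = 0.0301), a call that ended under the sum of counts, under the scaling on regions peaked in all 8 lists, with the narrowest peak counted, and when any of the 5 libraries named for Zbtb42 was left out.

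Of 19 corepressors and partners of BTB zinc finger proteins, 11 had a region, 2 in all 8 lists and 1 in treated lists only, beside 36.8%, 14.6% and 4.01% of all protein-coding genes. Of their 13 regions, 9 rose and 0 fell over both drugs in edgeR, beside 28% and 28.9% of all regions, and the median log2 change was 0.65, against 0.05; without DRB 0 h index TGACCA 5 rose. Tbl1xr1, a subunit of the NCoR complex, had 1.92 ± 0.23, the corepressor Ctbp2 had 1.30 ± 0.20 and 0.97 ± 0.15, and Rcor1 had 0.89 ± 0.14. The Tbl1xr1 region held only 3 reads in DRB 0 h index ATCACG. Both Ctbp2 regions were shared with Gm35364 and lay 39665 and 42048 bp from the nearest listed start of Ctbp2. Bcor and Bcorl1, subunits of a variant Polycomb repressive complex 1, had peaks in all 8 lists and log2 changes of 0.10 ± 0.09 and 0.11 ± 0.10, which did not pass.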

How the data were processed

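Suz12 ChIP-seq libraries were aligned with Bowtie and peaks called with MACS on mm10 (GRCm38), per the submitters' processing notes, with versions not given in the sources used. A deposited list holds the peaks of a single library and no score. Per the file headers it also holds read counts over those peaks in 13 columns, deposited by the authors as whole numbers without normalization. Column names placed 8 columns in the 4 groups; the other 5 were not used. DRB columns carry no replicate number of the labels and are named by index (ATCACG or TGACCA).

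Peaks overlapping by 1 bp were merged into regions, counted over the widest peak, with starts shown 1-based. Genes were protein-coding entries of RefSeq GRCm38.p6; symbols of lists were matched exactly, and a gene took regions within 1 kb of either end. Counts were tested in edgeR 4.0.16 (R 4.3.3) by quasi-likelihood with TMM scaling, 4 groups, no filter and Benjamini-Hochberg adjustment, at 0.05. The fit was tested on simulated data. Library totals were not used, so changes are relative among regions. Upstream windows came from the RefSeq promoter table; 36 of 41 genes matched.

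The genes and lists were chosen with earlier results of these data known. Values in every library are given for the 8 genes with the largest rise and up to 4 with the largest fall. They are also given for the 4 of highest CPM with peaks in all lists and the 4 with the smallest change. Zbtb7b, Zbtb2, Zbtb20 and the flank of Zbtb18 were added after their values were seen. A gene with several regions was ranked by its region of highest CPM. Alternatives were scaling, a count filter, DESeq2 1.42.0, the narrowest peak, merging within 1 kb, other windows and list rules, a replicate block, and leaving out each library. No protein sequences were used. A gene of the corepressor list is not reported here by name.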

Additional observations from a re-analysis of the deposited data

How the results depend on the processing

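Of 246 counts and medians under an alternative, 219 stayed within 1.5 times the value reported or, for medians, the spread, and of 208 values of named genes 194 kept their direction and call. With peaks of at least the median width (1357 bp), 15 Zbtb genes had a region and 4 had peaks in treated lists only. Scaled to the sum of all counts, 1 Zbtb region fell over both drugs, the median log2 change was 0.88 (all regions 0.25), Zbtb7c and Zbtb10 turned to 0.09, and 0 of the other BTB zinc finger regions fell. With TMM factors from regions in all 8 lists, 0 fell over both drugs, 0 under DRB and 0 under triptolide, 20 rose under triptolide, and the median was 1.04 (all regions 0.41). Zbtb42 turned to 0.10, and Zbtb7c and Zbtb10 to 0.26. Zbtb16 lost its call at -0.14, Zbtb46 gained one at 0.53, and 0 of the other BTB zinc finger regions fell. In the readings by the other drug, with factors from regions in all 4 lists used, a setting chosen after seeing the data, 0 fell in triptolide and 0 in DRB libraries. With the narrowest peak counted, 0 of the other BTB zinc finger regions fell and Zbtb18 had 0.35. The cause was not tested.

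Leaving out each library in turn, Zbtb regions that rose ranged from 13 to 20 over both drugs, 11 to 15 under DRB and 8 to 15 under triptolide. Those that fell ranged from 1 to 2 over both drugs and from 0 (without DRB 0 h index ATCACG) to 2 (without DRB 12 h index ATCACG) under DRB. The median ranged from 0.61 to 0.80. Regions of other BTB zinc finger genes that fell ranged from 0 to 1, and corepressor regions that rose from 5 to 9. Genes with a region ranged from 20 to 23, and those with peaks in treated lists only from 8 to 12. In these fits a lone library is assumed to vary like the other groups.

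Same-numbered triptolide libraries deviated together over regions (r = 0.391), but with 2 pairs they share only a number. With the replicate block, 17 Zbtb regions rose and 2 fell over both drugs, and 12 rose and 1 fell under triptolide. DRB columns carry no replicate number of the labels. Each index, ATCACG or TGACCA, names a DRB 0 h and a DRB 12 h library, so the index could pair them. No block on the index was fitted. DESeq2 called 14 rises and 2 falls over both drugs. The low Zbtb regions held as few as 5 reads in a library, against up to 2918 at Zbtb16. The part of depth in their calls was not tested.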
